A study of Mus musculus with 8 samples.

Results

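Immune checkpoints are pairs of a ligand and a receptor that restrain immune cells. Here 10 genes of such pairs were followed in tumors of HCA-1, a mouse hepatocellular carcinoma (HCC) line, 3 h after imiquimod (IMQ), a TLR7 agonist, was given in phospholipid-free small unilamellar vesicles (PFSUV-IMQ). The 10 genes were chosen by symbol in the deposited normalized table and joined by Ensembl identifier to the count table, which holds 55536 genes. They comprise the ligand genes Cd274 (PD-L1), Pdcd1lg2 (PD-L2), Lgals9 (galectin-9) and Cd47, the T cell checkpoint receptor genes Pdcd1 (PD-1), Ctla4, Lag3, Havcr2 (TIM-3) and Tigit, and Sirpa, the receptor for CD47 on myeloid cells. All 10 passed the filter on low counts. HCA-1 cells had been implanted in the liver of male C3H mice. Their age is 6 to 8 weeks per the labels, and the methods of the study give 4 to 6 weeks where they state the purchase. On day 17 the mice received 1 intravenous dose of PFSUV-IMQ at 4 mg per kg or saline, and RNA was sequenced from 4 tumors of each group 3 h later. The PFSUV-IMQ tumors carry the replicate numbers 1 to 4 and the saline tumors 1, 3, 4 and 5. The control received saline, so the vesicle and the drug cannot be told apart, and the labels give no animal numbers.

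PD-L1 and PD-L2 bind PD-1 on activated T cells and dampen signaling through the T cell receptor, and PD-L1 is a known interferon target in tumor, myeloid and endothelial cells. Galectin-9 is one of several ligands of TIM-3, which is carried by exhausted T cells and also by many macrophages and dendritic cells. CTLA-4 competes with CD28 for CD80 and CD86, LAG-3 binds MHC class II and FGL1, and TIGIT binds CD155 (Pvr) and CD112 (Nectin2). CD47 is a "do not eat me" signal on most cells, read by SIRPα on macrophages. In the liver, antigen is commonly met under tolerizing conditions, and these axes take part in that tolerance.

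Counts per tumor totalled 16883911 to 27687756 after saline and 17008151 to 18527613 after PFSUV-IMQ. Levels are normalized CPM, counts scaled to library size with edgeR's TMM factors, and 3 counts correspond to 0.105 to 0.210 CPM, so that each member lay far above the counting limit in every tumor. The quasi-likelihood test of edgeR, with Benjamini-Hochberg adjustment over 15998 tested genes and calls made where the adjusted p was under 0.05, put 394 genes higher and 35 lower after PFSUV-IMQ. Saline replicate 4 and PFSUV-IMQ replicate 2 stood apart in hepatocyte genes: the summed CPM of 8 such genes, Alb among them, was 35186 and 37374, against 4625 to 14439 in the other 6 tumors. PFSUV-IMQ replicate 2 also had the highest summed markers of T, B and natural killer cells and of neutrophils. Markers of the tumor label were low, with Afp at 2.1 to 6.08 CPM and Igf2 at no more than 3 counts in any tumor, so hepatocyte genes could not be used to part tumor from adjoining liver. In such bulk tissue, a change in the number of cells of a type and a change in RNA per cell cannot be told apart.

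Cd274 and Pdcd1lg2 are neighbors on the plus strand of chromosome 19 (GRCm38), from 29367455 to 29388095 and from 29410919 to 29471161, with 22823 bases between them. Their promoters and that of Lgals9 are shown because they belong to the 3 ligand genes known to respond to interferons, which TLR7 agonists induce. Each window runs from 250 bases before to 50 bases after the annotated start (RefSeq, GRCm38.p6), at chr19:29367188-29367487, chr19:29410669-29410968 and chr11:78984875-78985174 (minus strand), read 5′ to 3′ along the gene. Capitals mark motif matches found on either strand.
Cd274 promoter: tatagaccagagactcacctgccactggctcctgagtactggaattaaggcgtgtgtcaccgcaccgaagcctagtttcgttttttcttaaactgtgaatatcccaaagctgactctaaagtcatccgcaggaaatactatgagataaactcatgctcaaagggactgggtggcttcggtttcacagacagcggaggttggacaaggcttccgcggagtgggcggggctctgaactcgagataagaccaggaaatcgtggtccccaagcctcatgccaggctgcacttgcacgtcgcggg
Pdcd1lg2 promoter: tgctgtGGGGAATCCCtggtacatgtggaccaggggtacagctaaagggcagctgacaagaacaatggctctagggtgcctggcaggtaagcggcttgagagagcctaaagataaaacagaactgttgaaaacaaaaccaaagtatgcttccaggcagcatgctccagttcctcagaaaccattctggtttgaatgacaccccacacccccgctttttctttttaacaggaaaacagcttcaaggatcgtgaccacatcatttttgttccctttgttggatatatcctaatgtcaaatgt
Lgals9 promoter: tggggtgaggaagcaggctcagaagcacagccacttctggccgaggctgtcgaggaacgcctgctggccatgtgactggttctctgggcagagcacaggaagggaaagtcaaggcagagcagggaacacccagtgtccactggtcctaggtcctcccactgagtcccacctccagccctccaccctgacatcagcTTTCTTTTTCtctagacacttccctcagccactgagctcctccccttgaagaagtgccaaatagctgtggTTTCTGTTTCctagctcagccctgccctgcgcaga
The motifs searched were the core of the interferon-stimulated response element (ISRE, GAAA and GAAA parted by any 2 bases), the gamma-activated site (GAS, TTCNNNGAA) and the kappaB motif. The Lgals9 window holds 2 ISRE cores on the strand opposite to the printed one, beginning 55 bases before and 15 bases after the start, and 3.44% of 32851 promoter windows hold at least 1. A kappaB match lies in the Pdcd1lg2 window, 244 bases before the start, as in 8.46% of all windows. The Cd274 window holds none of the 3 patterns, and GAS is found in 8.30% of windows. These matches are descriptions of the letters and say nothing of binding in these tumors. Windows were at hand for 8 of the 10 members, and those of Pdcd1, Ctla4, Havcr2, Tigit and Cd47 hold no match either.

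Of the 4 ligand genes, Cd274 and Cd47 rose after PFSUV-IMQ and Pdcd1lg2 and Lgals9 did not pass the test, while none of the 5 T cell checkpoint receptor genes was called. Thus 2 of the 10 members were called higher, against 2.46% of all tested genes, and none was called lower, against 0.219%. The median log2 fold change was 1.05 for the ligands and 0.26 for the T cell checkpoint receptors, against -0.03 over all tested genes. At an unadjusted p under 0.05, Pdcd1lg2 and Lag3 were also higher and Sirpa lower, where 8.34% and 4.65% of all tested genes were. DESeq2's Wald test called the same 2 members, where 3.72% of genes were called higher and 0.915% lower, and limma's voom with quality weights called Sirpa lower as well, where the shares were 6.13% and 2.43%.

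**Figure D1:**
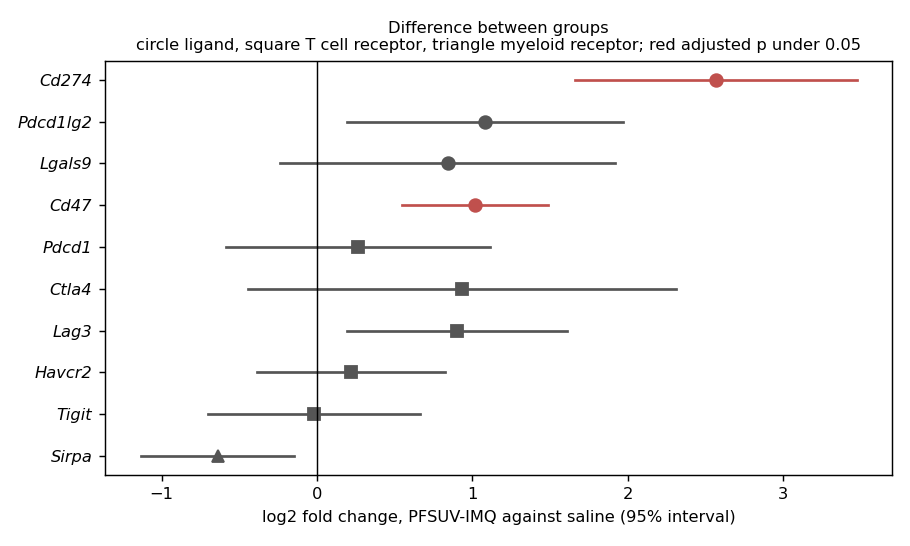
Log2 fold change of each member, PFSUV-IMQ against saline (x axis), with the 95% interval from edgeR's quasi-likelihood fit as a line, n = 4 tumors each. Circles are ligands, squares T cell checkpoint receptors and the triangle is the myeloid receptor; Cd274 (2.57) and Cd47 (1.02) are red, with an adjusted p under 0.05.

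Cd274 (ENSMUSG00000016496) changed most. After saline it was at 46.3, 90.1, 43.3 and 25.6 CPM in replicates 1, 3, 4 and 5, and after PFSUV-IMQ at 258, 470.1, 209.7 and 279 CPM in replicates 1 to 4. Every treated tumor lay above every saline tumor. Mean levels were 51.3 ± 27.4 and 304 ± 114 CPM (SD, n = 4 each), a 5.92-fold rise (95% interval 3.16 to 11.1) with a log2 fold change of 2.57 (SE 0.40, adjusted p = 0.0102). Exons of AC119228.1 on the opposite strand overlap 14.1% of the Cd274 exon bases, and the strand setting of the counting is not given in the sources used here. AC119228.1 itself had 20 to 67 counts per saline tumor and 65 to 261 per treated tumor, against 471 to 2563 and 3760 to 6729 for Cd274. The call was kept with any tumor left out, with log2 fold changes of 2.26 to 2.98 and adjusted p values of 0.00909 to 0.0493. The highest of these, without saline replicate 1, lay just under the threshold. The call was also kept without both hepatocyte-rich tumors (2.18, adjusted p = 0.0365).

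Pdcd1lg2 (ENSMUSG00000016498), which encodes the second PD-1 ligand and is mostly expressed by dendritic cells and macrophages, had the smaller values of the pair. Its saline values were 4.70, 11.8, 6.14 and 4.02 CPM and its treated values 15.4, 21.7, 9.70 and 9.76 CPM. Saline replicate 3 overlapped with the 2 lowest treated tumors. The means were 6.66 ± 3.52 and 14.2 ± 5.72 CPM, a log2 fold change of 1.08 (SE 0.40, 95% interval 0.19 to 1.97) that was not called (adjusted p = 0.265).

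Cd47 (ENSMUSG00000055447, chromosome 16, 49800533 to 49915010) is expressed by nearly all cells. Levels of 215, 279.6, 247 and 206 CPM after saline compared with 372, 638, 441 and 471 CPM after PFSUV-IMQ. The groups did not overlap, and 6.00% of all tested genes likewise had every treated tumor above every saline tumor. From 237 ± 33.3 to 480.5 ± 113 CPM, Cd47 rose 2.03-fold (95% interval 1.46 to 2.81), with a log2 fold change of 1.02 (SE 0.21, adjusted p = 0.0356). This call lay near the threshold. It was lost without saline replicates 1, 3, 4 or 5, at adjusted p values of 0.129, 0.0758, 0.0827 and 0.0799, and without PFSUV-IMQ replicates 2, 3 or 4, at 0.0609, 0.0841 and 0.101, while the log2 fold change stayed between 0.84 and 1.12. Without both hepatocyte-rich tumors it was 0.85 (adjusted p = 0.0768).

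Lgals9 (ENSMUSG00000001123, chromosome 11, 78962974 to 78984946, minus strand) is the ligand whose values followed the hepatocyte-rich tumors. After saline it was at 81.4, 78.5, 233 and 62.3 CPM and after PFSUV-IMQ at 155, 376, 138 and 145 CPM. The single high saline value was that of replicate 4 and the single high treated value that of replicate 2, the tumors with summed hepatocyte genes of 35186 and 37374 CPM. Over all tumors, means of 114 ± 79.7 and 204 ± 115 CPM gave a log2 fold change of 0.84 (SE 0.48, 95% interval -0.24 to 1.92, adjusted p = 0.544). Without both of these tumors, an alternative chosen after seeing the data, the log2 fold change was 0.96 (SE 0.17) and Lgals9 was called (adjusted p = 0.0307), where 1.86% of tested genes were called higher and 0.187% lower. With only one of them left out it was not called, at 1.45 without saline replicate 4 and 0.35 without PFSUV-IMQ replicate 2. The part of hepatocytes in the Lgals9 level was not tested.

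**Figure D2:**
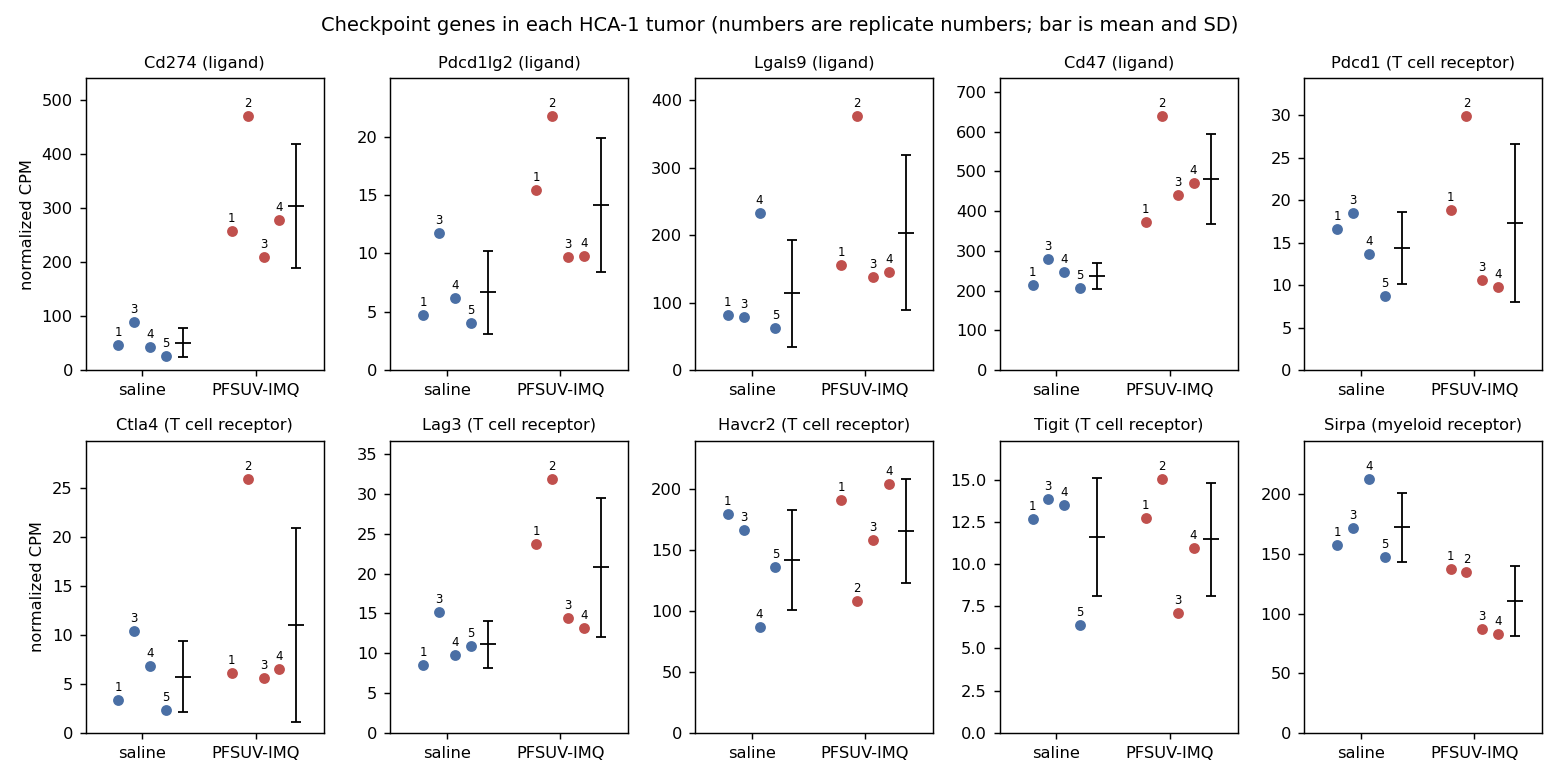
Normalized CPM (y axes, starting at 0) of the 10 members in each of the 8 tumors, saline in blue and PFSUV-IMQ in red, each point labelled with its replicate number; black bars are mean and SD, n = 4. Cd274 and Cd47 are higher in all 4 treated tumors, Sirpa lower, and the other 7 members overlap.

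None of the 5 T cell checkpoint receptor genes was called, and 4 of them had log2 fold changes above 0. Pdcd1 (ENSMUSG00000026285, chromosome 1, 94038305 to 94052553) was at 16.6, 18.4, 13.7 and 8.69 CPM with saline and at 18.9, 29.8, 10.7 and 9.81 CPM with PFSUV-IMQ. The groups spanned the same range apart from PFSUV-IMQ replicate 2. The log2 fold change of 0.26 (SE 0.38, 95% interval -0.58 to 1.11, adjusted p = 0.854) became -0.15 without that tumor. An increase as large as that of Cd274 lay outside this interval, whereas one of 1.11 did not.

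Ctla4 (ENSMUSG00000026011, chromosome 1, 60887000 to 60915832), the receptor of activated and regulatory T cells, had its groups parted by no more than a single tumor. Its values of 3.41, 10.4, 6.83 and 2.33 CPM with saline and 6.12, 25.9, 5.58 and 6.56 CPM with PFSUV-IMQ overlapped except in replicate 2 of the treated group. The log2 fold change was 0.93 (SE 0.61, adjusted p = 0.619) over all tumors and 0.062 without that tumor. Foxp3, Il2ra, Ikzf2 and Ikzf4, markers of regulatory T cells, summed to 70.8 CPM there, against 32.8 to 41.3 CPM in the other treated tumors and 25.3 to 39.7 CPM after saline, and their part in the Ctla4 value was not tested.

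Lag3 (ENSMUSG00000030124, chromosome 6, 124904361 to 124911705) had the T cell checkpoint receptor values closest to a separation of the groups. It was at 8.53, 15.2, 9.75 and 10.9 CPM with saline and at 23.7, 31.9, 14.4 and 13.2 CPM with PFSUV-IMQ. Only saline replicate 3 overlapped with treated tumors, replicates 3 and 4. The means of 11.1 ± 2.91 and 20.8 ± 8.75 CPM gave a log2 fold change of 0.90 (SE 0.31, 95% interval 0.20 to 1.61) that was not called (adjusted p = 0.238).

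Havcr2 (ENSMUSG00000020399, chromosome 11, 46454935 to 46481255) is also expressed by macrophages and dendritic cells. Its values were 179.7, 166, 86.9 and 136 CPM with saline and 192, 109, 158 and 204 CPM with PFSUV-IMQ. In contrast to Lgals9, it was lowest of its group in the hepatocyte-rich tumors, saline replicate 4 and PFSUV-IMQ replicate 2. The log2 fold change was 0.22 (SE 0.27, 95% interval -0.39 to 0.82, adjusted p = 0.822).

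Tigit (ENSMUSG00000071552, chromosome 16, 43648867 to 43664146) had the smallest difference of all members, at -0.021 on the log2 scale (SE 0.30, 95% interval -0.70 to 0.66, adjusted p = 0.989). The saline tumors were at 12.7, 13.8, 13.5 and 6.41 CPM and the treated tumors at 12.7, 15, 7.08 and 11 CPM, and each group thus had 1 low tumor, saline replicate 5 and PFSUV-IMQ replicate 3.

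Sirpa (ENSMUSG00000037902, chromosome 2, 129592835 to 129632228) was the 1 member with every treated tumor below every saline tumor, as in 3.28% of all tested genes. Levels of 157, 171, 213 and 147 CPM compared with 137, 135, 86.9 and 83.0 CPM, or means of 172 ± 28.7 and 110.5 ± 29.5 CPM. The log2 fold change was -0.64 (SE 0.22, 95% interval -1.14 to -0.15), and the adjusted p of 0.228 did not pass, whereas voom with quality weights gave -0.85 (adjusted p = 0.0144). The sum of 8 macrophage and monocyte markers overlapped, at 1239 to 2059 CPM with saline and 937 to 1979 CPM with PFSUV-IMQ. It was lowest in PFSUV-IMQ replicates 3 and 4, which were also lowest in Sirpa. In PFSUV-IMQ replicates 1 and 2 it was 1716 and 1979 CPM, within the saline range, while Sirpa was below every saline tumor. Single markers of the list went in different directions. Fcgr1, a receptor for immunoglobulin G, was called higher (log2 fold change 1.32, adjusted p = 0.0290), and Cd14, the coreceptor for lipopolysaccharide, was higher in every treated tumor without passing the test (0.63, adjusted p = 0.104). The other 6 markers, among them Csf1r, the receptor of a macrophage growth factor (-0.75, adjusted p = 0.388), overlapped between the groups. Of 4 markers of Kupffer cells, the resident macrophages of the liver, Vsig4 was called lower (-1.62, adjusted p = 0.0453) and the other 3 were not called. The part of myeloid cell number in the Sirpa level was not tested.

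Ligands were then set against receptors of the same axis within each tumor, as the log2 CPM of the ligand minus that of the receptor, which cancels library scaling. Differences of 4 such ratios were compared by exact two-sided permutation tests over the 70 groupings of 4 against 4 tumors, whose smallest p is 0.0286, and adjusted over the 4 pairs. For Cd274 and Pdcd1 the ratio was 1.48, 2.28, 1.65 and 1.55 after saline and 3.77, 3.97, 4.29 and 4.82 after PFSUV-IMQ. Its mean thus rose by 2.47 on the log2 scale, from 1.74 ± 0.37 to 4.21 ± 0.46 (SD, n = 4 each, exact permutation p = 0.0286, adjusted p = 0.0381). All 4 treated tumors lay above all saline tumors, and the SD within each group was below 0.5. The share of all genes whose ratio to Pdcd1 parts the groups likewise was not computed.

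Pdcd1lg2 relative to Pdcd1 also differed, although Pdcd1lg2 itself was not called. The ratios were -1.80, -0.64, -1.14 and -1.09 after saline and -0.29, -0.46, -0.13 and -0.01 after PFSUV-IMQ, a difference of 0.95 (exact permutation p = 0.0286, adjusted p = 0.0381). Saline replicate 3, which overlapped with treated tumors in Pdcd1lg2 itself, lay below all 4 of them in the ratio. The ratio of Cd47 to Sirpa was 0.45, 0.71, 0.22 and 0.49 after saline and 1.44, 2.24, 2.34 and 2.50 after PFSUV-IMQ. The difference was 1.67 or 3.17-fold (exact permutation p = 0.0286, adjusted p = 0.0381). Cd47 was higher and Sirpa lower in every treated tumor. This ratio therefore had to separate the groups, and its p adds nothing to those values, although it entered the adjustment over the 4 pairs. For Lgals9 and Havcr2 the ratio was -1.14, -1.08, 1.42 and -1.13 after saline and -0.30, 1.79, -0.20 and -0.49 after PFSUV-IMQ, and the difference of 0.68 was smaller than the spread within the groups (SD 1.27 and 1.07, exact permutation p = 0.457). It was 1.32 without saline replicate 4 and 0.15 without PFSUV-IMQ replicate 2. The 2 hepatocyte-rich tumors were the highest of their groups, and each of the other 3 treated tumors lay above the other 3 saline tumors.

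**Figure D3:**
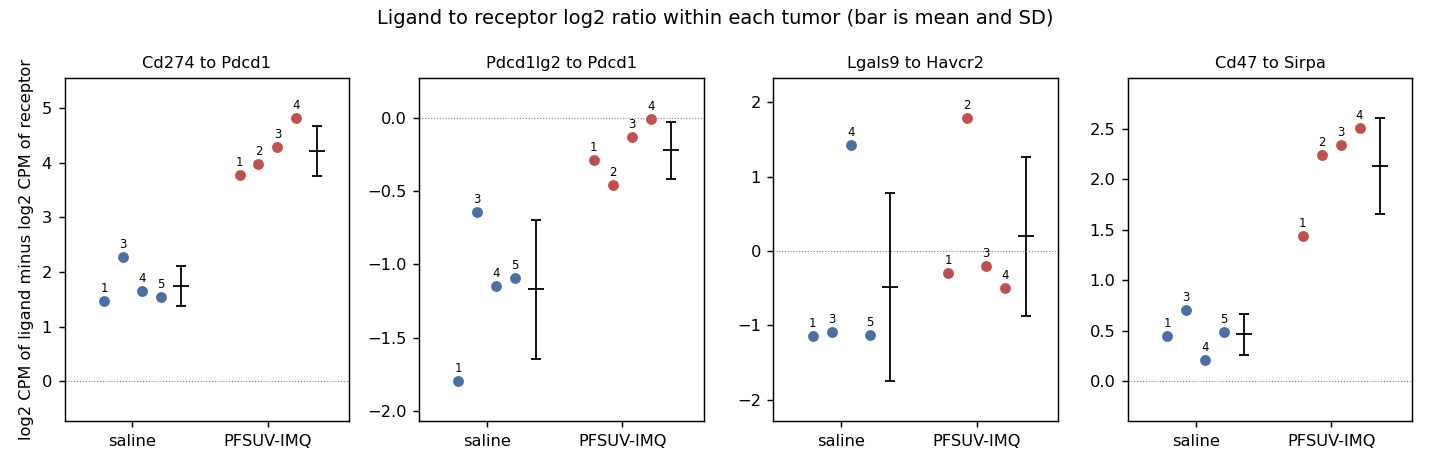
Log2 CPM of the ligand minus log2 CPM of the receptor in each tumor (y axes) for 4 ligand and receptor pairs, saline in blue and PFSUV-IMQ in red, labelled with replicate numbers, with mean and SD (n = 4). The groups are apart for Cd274 to Pdcd1, Pdcd1lg2 to Pdcd1 and Cd47 to Sirpa and overlap for Lgals9 to Havcr2.

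The T cell checkpoint receptor genes were also set relative to the summed CPM of Cd3e, Cd3d and Cd3g, which form the CD3 complex of every T cell. That sum was 43.7, 66.5, 49.1 and 29.0 CPM with saline and 42.3, 65.0, 29.6 and 28.2 CPM with PFSUV-IMQ, so T cell transcripts spanned the same range in both groups. Of 12 T cell markers none was called. Relative to this sum, Lag3 was at -2.34, -2.12, -2.32 and -1.40 (log2) after saline and at -0.83, -1.02, -1.03 and -1.09 after PFSUV-IMQ, and the groups did not overlap. The mean difference in the log2 ratio was 1.05 for Lag3, 1.04 for Ctla4, 0.45 for Havcr2, 0.39 for Pdcd1 and 0.21 for Tigit, and for the latter 4 genes the groups overlapped. These ratios are descriptions and were not tested, and the share of all genes that part likewise relative to this sum was not computed. As LAG-3 is also carried by natural killer cells and TIM-3 by myeloid cells, a ratio to Cd3 genes is not a level per T cell.

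**Figure D4:**
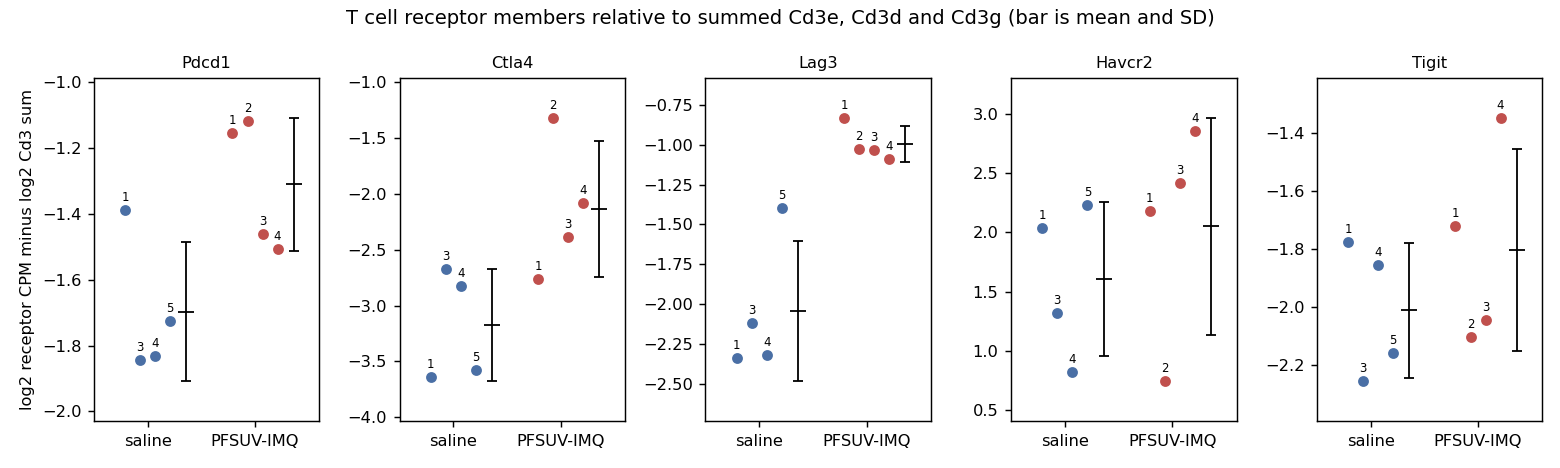
Log2 CPM of each T cell checkpoint receptor gene minus the log2 of the summed CPM of Cd3e, Cd3d and Cd3g (y axes), per tumor, labelled with replicate numbers, with mean and SD (n = 4). Only for Lag3 do all 4 PFSUV-IMQ tumors (red, -1.09 to -0.83) lie above all 4 saline tumors (blue, -2.34 to -1.40). The ratios were not tested.

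Levels of different genes were compared as TPM, a gene's counts per exon base relative to the sum over all genes. After saline, Havcr2 and Lgals9 led at 153 ± 47.3 and 151 ± 97.9 TPM, followed by Cd47 at 109 ± 9.56 and Sirpa at 101 ± 11.4 TPM, and no neighbors in this order differed in every tumor. Cd274, at 40.5 ± 20.02 TPM, and Tigit, at 36.3 ± 9.68 TPM, came next, below Sirpa in every tumor. Pdcd1, Lag3, Pdcd1lg2 and Ctla4 followed at 21.4, 15.2, 9.69 and 6.96 TPM. After PFSUV-IMQ, Cd274 stood second at 209 ± 51.4 TPM, between Lgals9 at 232 ± 93.5 and Cd47 at 192 ± 20.7 TPM, and the 3 were not in the same order in every tumor. Sirpa followed Havcr2, at 57.4 ± 16.5 TPM. The mean TPM of Cd274 was 1.89 times that of Pdcd1 after saline and 9.44 times after PFSUV-IMQ, and at 18.1 ± 5.74 TPM Pdcd1lg2 remained the scarcer PD-1 ligand in every tumor.

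The extremes of several members fell in the same tumors. In CPM, PFSUV-IMQ replicate 2 was the highest of its group in 8 of the 10 members, all but Havcr2 and Sirpa. Its TMM factor was 0.84, against 0.98 to 1.00 in the other treated tumors. A lower factor raises every CPM of a tumor relative to scaling by total counts. Of the saline tumors, replicate 3 was highest in 7 and replicate 5 lowest in 8. The share of all tested genes with these extremes was not counted. In TPM, PFSUV-IMQ replicate 1 was higher than replicate 2 in Tigit (40.0 against 34.4) and Lag3 (32.3 against 31.8) as well. The 5 genes whose log2 CPM followed Cd274 most closely over the 8 tumors were Gbp2, Got1, Gbp2b, Gbp3 and Arl6ip1 (Pearson r = 0.997, 0.996, 0.993, 0.992 and 0.992, a description that includes the difference between groups). Gbp2, Gbp2b and Gbp3 encode guanylate-binding proteins, and Gbp2, for one, had a log2 fold change of 1.99 (SE 0.32, adjusted p = 0.0107). Those closest to Pdcd1 were Cd8b1, Htr2a, Tnfrsf18, Nkg7 and Tnfrsf13c (r = 0.955, 0.947, 0.936, 0.936 and 0.933). Cd8b1 encodes a chain of the CD8 coreceptor and Nkg7 a protein of cytotoxic granules, and all 5 had adjusted p values from 0.769 to 0.970.

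Among other genes of these and related axes, 1 of 25 tested genes on the side of the ligands and antigen-presenting cells was called higher and none lower, and none of 17 tested receptors was called in either direction, counts close to the shares of all tested genes called higher (2.46%) and lower (0.219%). The called gene was Cd40, the receptor through which helper T cells license dendritic cells, at 5.84 ± 1.33 CPM in saline tumors and 39.5 ± 28.9 CPM in treated ones (log2 fold change 2.75, SE 0.44, adjusted p = 0.0110). Its PFSUV-IMQ values were 24.4 to 25.9 CPM in 3 tumors and 82.9 CPM in replicate 2. The next largest differences on that side were in Tnfsf4 (1.5, adjusted p = 0.340) and Tnfsf18 (1.10, adjusted p = 0.513), the ligands of OX40 and GITR. Both had their high value in PFSUV-IMQ replicate 2 alone, with Tnfsf4 at 12.4 CPM there and at 1.6 to 2.48 CPM in the other treated tumors, and Tnfsf18 at 5.03 against 0.937 to 1.38 CPM. On the side of the receptors, Cd5, an inhibitory coreceptor of T cells, had -1.17 (adjusted p = 0.160), Btla, the receptor of HVEM, -0.96 (adjusted p = 0.466) and Icos, a costimulator, 0.85 (adjusted p = 0.419). The median log2 fold change was 0.12 for the 25 and -0.22 for the 17, against -0.03 over all tested genes.

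The partners of the 3 receptors without a ligand among the members were not called. Cd80, which binds CTLA-4 and CD28, was at 16.9 to 22.8 CPM with saline and 27.9 to 32.6 CPM with PFSUV-IMQ without overlap, yet its log2 fold change of 0.64 (SE 0.15) did not pass (adjusted p = 0.0693). Cd86 had 0.75 (SE 0.31, adjusted p = 0.329). For LAG-3, the MHC class II genes H2-Ab1 and H2-Aa had 0.050 and -0.24 (adjusted p = 0.963 and 0.779). Fgl1, made by hepatocytes, ranged from 23.1 to 371 CPM with saline and from 122 to 713 CPM with PFSUV-IMQ (adjusted p = 0.705). For TIGIT, Pvr and Nectin2 had 0.36 and 0.48 (adjusted p = 0.655 and 0.324).

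**Figure D5:**
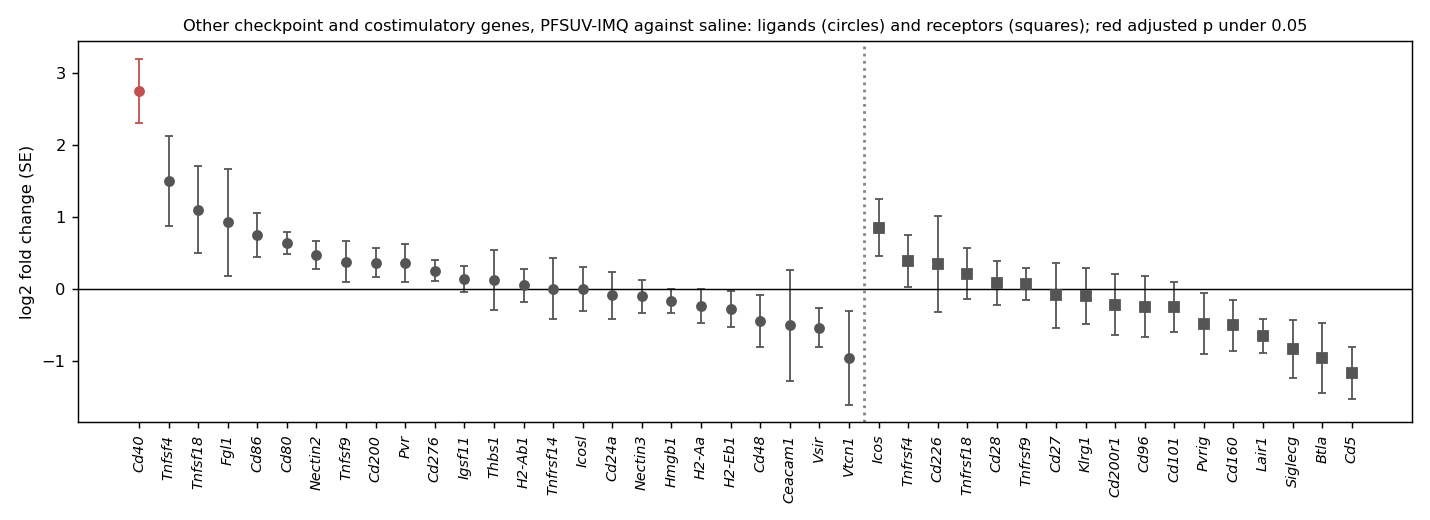
Log2 fold change with standard error (y axis) of 25 other genes on the side of ligands and antigen-presenting cells (circles, left) and 17 other receptors (squares, right), PFSUV-IMQ against saline, n = 4 tumors each. Cd40, at 2.75, is the 1 gene with an adjusted p under 0.05 (red).

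Among genes known to regulate PD-L1, Jak2, the kinase encoded close to Cd274 on the same chromosome, had a log2 fold change of 0.93 (SE 0.34, adjusted p = 0.262) and Irf1, a transcription factor that acts on the PD-L1 gene, 0.87 (SE 0.23, adjusted p = 0.0939). In both of them, and in Stat3 and Nfkb1, every treated tumor lay above every saline tumor, as in 6.00% of all tested genes, and none of the 4 was called. The interferon receptor genes Ifngr1, Ifngr2, Ifnar1 and Ifnar2 had log2 fold changes of -0.35, -0.0018, -0.14 and 0.046, and none was called. Of 12 genes that act downstream of the checkpoint receptors or set T cell exhaustion, none was called in either direction, and the largest differences were in Tbx21 (0.72, adjusted p = 0.623), Eomes (0.52, adjusted p = 0.754) and Ptpn6 (0.28, adjusted p = 0.785).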

How the data were processed

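RNA was sequenced from 8 HCA-1 tumors. Raw, unnormalized gene counts were deposited by the authors, and a second table of signal values, the same counts divided by 1 size factor per tumor with DESeq2, used here for symbols and for an added alternative. The methods of the study name TopHat and HTSeq, whereas the submitters' processing notes name HISAT2 2.1.0 and featureCounts 2.0.0, so which made the counts is unclear. All identifiers are in GENCODE M21 (GRCm38), the source of coordinates and exon lengths, and a genome build is not given in the sources used here. Replicate tumors differed by more than sampling noise (chi-square per degree of freedom 29.0 to 291).

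Tests used R 4.3.3 with edgeR 4.0.16 (TMM, default filter, quasi-likelihood test, no fold limit as in the study), DESeq2 1.42.0 and limma 3.58.1, and ratios took log2 CPM at prior count 2 and SciPy 1.17.1. SE is the log2 fold change over the root of the F statistic. The fit was tested on simulated counts. Members and lists were chosen with earlier results of these data known. Named genes are the members, every called gene and the 3 largest differences of each list, and the 5 nearest patterns. Partners of the receptors, regulators that do not overlap, and markers were named outside that rule, with their values seen. One symbol of the lists was not matched. One result of the list of PD-L1 regulators is not reported here, and no count over that list is given. Alternatives were other size factors and filters, DESeq2, voom, a fold limit, a replicate block and each tumor left out. Intervals are those of edgeR's quasi-likelihood fit and include the spread between tumors, not counting error alone. The p values of the fits set the difference between groups against that spread.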

Additional observations from a re-analysis of the deposited data

Results flagged for a closer look

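In 6 of 28 groups of 4 tumors, the highest or lowest tumor stood apart from the other 3. Chance flags about 1 in 20 of independent groups of normally distributed values. These groups are not independent, because some are ratios of the same member values, so no excess over chance is read from them. Lgals9 was 233 CPM in saline replicate 4 and 376 CPM in PFSUV-IMQ replicate 2, and its log2 ratio to Havcr2 was 1.42 and 1.79 in the same tumors, which had the highest summed hepatocyte genes of the series (35186 and 37374 CPM). Ctla4 was 25.9 CPM in PFSUV-IMQ replicate 2, against 5.58 to 6.56 CPM in the other treated tumors. Tigit was 6.41 CPM in saline replicate 5, below 12.7 to 13.8 CPM in the other saline tumors. The part of cell composition in these values was not tested.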

How the results depend on the processing

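Cd274 was called in all 18 alternatives, with log2 fold changes from 2.04 to 2.98 and adjusted p values up to 0.0493. Cd47 lost its call with the replicate number as a block (0.79, adjusted p = 0.0529), without both hepatocyte-rich tumors and in 7 of the 8 fits that left out a tumor, so that 1 or 2 members were called in those fits and 1 with the block. The labels give no pairing of tumors by replicate number. Deviations of tumors with the same number correlated at 0.29, -0.27 and -0.32, and those of other pairs from -0.64 to 0.68. These correlations cannot tell whether tumors of the same number shared a batch. The calls over all genes (394 higher, 35 lower) became 731 and 180 with DESeq2's Wald test, 980 and 389 with voom, 519 and 302 with the block, 510 and 64 with no filter, and 198 to 398 and 8 to 41 with each tumor left out. Pdcd1 changed direction with voom (-0.46), the block (-0.36), without PFSUV-IMQ replicate 2 (from -0.15 to 0.46 over the 8 fits) and without both hepatocyte-rich tumors (-0.18). Ctla4 did with voom (-0.038) and the block (-0.054), and Tigit ranged from -0.22 to 0.16 with each tumor left out. None of these 3 genes was called in any setting. The cause was not tested. The 4 ligand to receptor ratios kept their direction and their side of the threshold at prior counts of 0.5 and 5. DESeq2's size factors could hardly change them, because library scaling cancels in the ratio, so that alternative is no check. With the block the difference for Lgals9 and Havcr2 was -0.063. With 3 tumors against 4 the exact test cannot reach 0.05.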
